A study of Homo sapiens with 16 samples.

Results

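The 10 genes described here are 6 matrix metalloproteinases, 3 of their tissue inhibitors and 1 transcribed pseudogene, out of 28951 genes in the deposited table. They were found by matching Ensembl IDs to the symbols MMP1, WTAPP1, MMP3, MMP10, MMP2, MMP7, MMP14, TIMP1, TIMP2 and TIMP3 in GENCODE 29. The list was chosen by the measured Combo responses of H460 and H1703 and the Vehicle levels of MMP1 and WTAPP1, so the genes' changes in those lines, and the Vehicle levels of MMP1 and WTAPP1, are given as descriptions with no test. Total RNA was sequenced from 4 established human non-small cell lung cancer lines in 8 groups of 2 libraries each. Combo cells received 5 µM MYCi975, a small molecule inhibitor of the transcription factor MYC, together with 25 µM TMP195, an inhibitor of class IIa histone deacetylases, for 48 hours, and Vehicle cells received DMSO for the same time. The Combo and Vehicle groups of H460 and H1703, which the series calls responsive, and those of HCC827 and H441, which it calls non-responsive, were kept in RPMI with 10% fetal bovine serum, and the agents were added 1 day after plating. The labels do not state that both libraries of a group stem from independent cultures, so the p-values measure only the spread between these libraries.

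Matrix metalloproteinases are zinc-dependent enzymes that cut collagens and other proteins of the extracellular matrix, and most are secreted as inactive proenzymes that other proteases activate. The TIMPs bind the active site of these enzymes and block them. MMP1, MMP3, MMP10 and MMP7 lie in a gene cluster on chromosome 11 and are textbook targets of AP-1, the dimer of FOS and JUN family proteins that binds TGANTCA. In tumours MMP1 and MMP14 are best known for breaking down fibrillar collagen.

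Start regions of 300 bases, from 250 bases before to 50 bases after the RefSeq start on GRCh38.p14, were found for 5 of the 10 genes, which were MMP7, MMP10, MMP14, TIMP1 and TIMP3. The 3 shown are those of MMP10, MMP7 and TIMP1. MMP10, which has an exact match to TGANTCA, was higher in H460 and H1703 Combo cells. MMP7, which had 3 reads or fewer in every library, has a match at the same distance. TIMP1 was higher in the same lines as MMP10 and has no exact match. Near matches were not searched, and the part of the motif in these changes was not tested. The sequences read 5′ to 3′ on the strand of the gene, with exact matches to TGANTCA in capitals.
MMP10 (chr11:102780579-102780878, minus strand): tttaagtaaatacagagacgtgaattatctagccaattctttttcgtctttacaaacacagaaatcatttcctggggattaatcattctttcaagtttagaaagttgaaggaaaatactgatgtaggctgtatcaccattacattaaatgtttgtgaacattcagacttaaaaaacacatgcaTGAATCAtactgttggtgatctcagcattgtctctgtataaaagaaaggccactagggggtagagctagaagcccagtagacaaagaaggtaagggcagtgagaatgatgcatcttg
MMP7 (chr11:102530698-102530997, minus strand): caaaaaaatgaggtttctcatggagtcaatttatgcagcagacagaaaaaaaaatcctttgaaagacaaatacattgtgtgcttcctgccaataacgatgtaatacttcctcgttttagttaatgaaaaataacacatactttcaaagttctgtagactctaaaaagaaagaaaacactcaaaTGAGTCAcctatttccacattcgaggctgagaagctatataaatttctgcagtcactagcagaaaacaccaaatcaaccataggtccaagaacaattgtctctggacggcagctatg
TIMP1 (chrX:47582186-47582485, plus strand): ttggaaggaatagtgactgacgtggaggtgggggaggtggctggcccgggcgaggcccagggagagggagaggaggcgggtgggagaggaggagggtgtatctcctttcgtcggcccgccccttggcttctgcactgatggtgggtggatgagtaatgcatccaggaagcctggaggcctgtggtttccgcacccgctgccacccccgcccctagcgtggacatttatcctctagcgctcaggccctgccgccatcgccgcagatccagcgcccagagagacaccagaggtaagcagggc
TGANTCA, which reads the same on both strands apart from its middle base, was found as TGAATCA in MMP10 and as TGAGTCA in MMP7, in both with its first base at position -67 from the start. It was present in 7.71% of the 35116 start regions of this length in the RefSeq table. The TATA motif TATAAA stood at position -31 in MMP10 and -30 in MMP7, and 11.5% of all start regions held it on either strand. AGGAAG, the PEA3 motif of ETS factors, was found once in TIMP1, at position -87, and in MMP7 on the minus strand at -169 and -145, against a share of 33.6% of all start regions. The E-box CACGTG, bound by MYC and MAX and present in 7.26% of start regions, and the MEF2 motif, present in 2.99%, were in none of the 5, and MMP14 and TIMP3 held none of the 5 motifs searched. No 2 of the matches overlapped.

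The libraries held 8493271 to 13604150 reads in the listed genes, and the 2 libraries of a group correlated at 0.974 to 0.982 across genes, which are not independent replicates. Group means of the epithelial marker EPCAM were 0.974 to 7.16 normalised reads in H460 and H1703 and 2191 to 4925 in HCC827 and H441. EPCAM was thus close to absent from H460 and H1703, while the keratins of epithelial cells were abundant in H460, with 18572 normalised reads of KRT8 in Combo cells and 17449 in Vehicle cells and 5028 and 3749 of KRT18. In H1703 they were low, with 70.3 of KRT8 in Combo cells and 62.9 in Vehicle cells. Fibroblasts are a major source of MMP1 and TIMPs in tissue, and 3 of 5 fibroblast markers had a row in the table (COL1A1, PDGFRB and LUM). Their sum per library was 41.1 to 44.9 normalised reads in H460 Combo cells and 94.9 to 99.9 in H460 Vehicle cells, and 0 to 4.36 in H1703 Combo cells and 3.90 to 6.31 in H1703 Vehicle cells. In HCC827 the sum was 18.8 to 29.5 with Combo and 65.4 to 71.9 with Vehicle, and in H441 it was 151 to 153 with Combo and 189 to 238 with Vehicle. The sum was lower in the Combo libraries of H460, HCC827 and H441, while LUM by itself had group means of 0.570 with Combo against 0 with Vehicle in H460 and 2.10 against 1.62 in HCC827. The part of these markers in the results was not tested. Leukocyte markers (CD14 and CSF1R, 2 of 3 listed) summed to 0.788 to 56.3 and endothelial markers (PECAM1 and VWF, 2 of 3 listed) to 0 to 11.1 normalised reads per library. In such bulk RNA, fewer cells that express a gene and less RNA per cell cannot be told apart.

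MMP1, the interstitial collagenase that cleaves fibrillar collagens I, II and III (ENSG00000196611, chr11:102789920-102798160, minus strand), was almost silent in Vehicle cells of every line. In H460 it had 361 and 951 reads in the Combo libraries, against 2 and 0 reads in the Vehicle libraries. In H1703 it had 289 and 278 reads with Combo, against 7 and 14 with Vehicle. The Combo libraries lay far above the Vehicle libraries in both lines, and in H460 the second Combo library stood at 1084 normalised reads, against 368 in the first. Normalised reads are reads divided by the library's size factor. The ratio of Combo to Vehicle was 810 in H460 (95% counting interval 224 to 6695), which rests on 2 Vehicle reads, and 30.3 in H1703 (19.6 to 49.3). These intervals cover counting error only. On the deposited variance-stabilised log2 scale the change was 8.02 ± 0.61 in H460 and 4.62 ± 0.61 in H1703 (SE of the fit, n = 2 libraries per group).

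In the other two lines MMP1 stayed at a handful of reads. HCC827 had 5 and 10 reads with Combo and 9 and 5 with Vehicle, and these groups overlapped. H441 had 5 and 15 reads with Combo and 2 and 0 with Vehicle, with no overlap. The log2 change in HCC827 was -0.02 ± 0.61, with an adjusted p of 1.00 by limma with Benjamini-Hochberg adjustment over 23968 genes. In H441 it was 2.14 ± 0.61 with an adjusted p of 0.0509 (unadjusted 0.00239), just outside the threshold of 0.05, and the ratio of 8.72 had a counting interval of 2.12 to 77.0. The H441 value depended on single libraries: without Vehicle 1 of H441 the change was 2.99, and without Vehicle 2 it was 1.28. Its call also depended on the error estimate shared between lines. It passed when any single library of H460 was left out, although these do not enter the H441 change. Over all 24 alternatives its adjusted p ran over 0.0252 to 0.752.

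WTAPP1, a transcribed pseudogene of WTAP (ENSG00000255282, chr11:102746968-102836766, plus strand), spans MMP10 and MMP1 on the opposite strand. It had 108 and 235 reads in H460 Combo libraries, against 4 and 1 in Vehicle libraries, and 87 and 85 reads in H1703 Combo libraries, against 11 and 19. As for MMP1, the groups did not overlap in either line and the second H460 Combo library was the higher one. The ratios were 84.7 in H460 (35.9 to 263) and 6.43 in H1703 (4.35 to 9.82). HCC827 had 2 and 3 reads with Combo and 1 and 0 with Vehicle, and H441 had 1 and 7 with Combo and 1 and 0 with Vehicle. The log2 change was 1.18 ± 0.61 in HCC827 and 1.31 ± 0.61 in H441, and neither passed (adjusted p = 0.275 in each by limma).

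Since both strands of this locus are annotated, the shares of reads were compared. WTAPP1 shares 150 exon bases with MMP1, which is 7.61% of the MMP1 exon sequence, 32 with MMP3 and 0 with MMP10. The library kit keeps the strand, but the sources used here do not give the strand setting of the counting, so reads within the shared bases may belong to either gene. WTAPP1 had 29.9 and 24.7 reads per 100 MMP1 reads in H460 Combo libraries, and 30.1 and 30.6 in H1703 Combo libraries, against 157 and 136 in H1703 Vehicle libraries. Its share relative to MMP1 was therefore lower in every Combo library of H1703 than in the Vehicle libraries, while its own reads were more. In H460 Vehicle cells 2 MMP1 reads were too few for such a share.

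MMP10, the stromelysin 2 proteinase that degrades proteoglycans and activates procollagenases (ENSG00000166670, chr11:102770503-102780628, minus strand), had 11 and 23 reads in H460 Combo libraries, against 0 and 1 in Vehicle libraries. In H1703 it had 101 and 115 reads with Combo, against 11 and 16 with Vehicle. The groups were apart in both lines, with ratios of 42.0 (7.04 to 1706) and 8.98 (6.0 to 13.9), and H1703 had the most MMP10 reads with either treatment. In HCC827 the gene had 0 and 0 reads with Combo and 1 and 0 with Vehicle, and in H441 it had no read in any library, so no change was detectable at this depth in either line. MMP3, stromelysin 1 (ENSG00000149968, chr11:102835801-102843803, minus strand), had 10 reads over all 16 libraries. Of these 5 and 2 were in H1703 Combo libraries, against 0 and 2 in Vehicle libraries, a ratio of 3.93 with an interval of 0.748 to 38.7. MMP7, matrilysin, a small epithelial proteinase (ENSG00000137673, chr11:102520508-102530753, minus strand), also had 10 reads in all. They lay in HCC827, with 0 and 1 reads in Combo against 0 and 3 in Vehicle libraries, and in H441, with 1 and 0 against 3 and 2. MMP3 and MMP7 were below the filter on low values and were not tested.

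**Figure D1:**
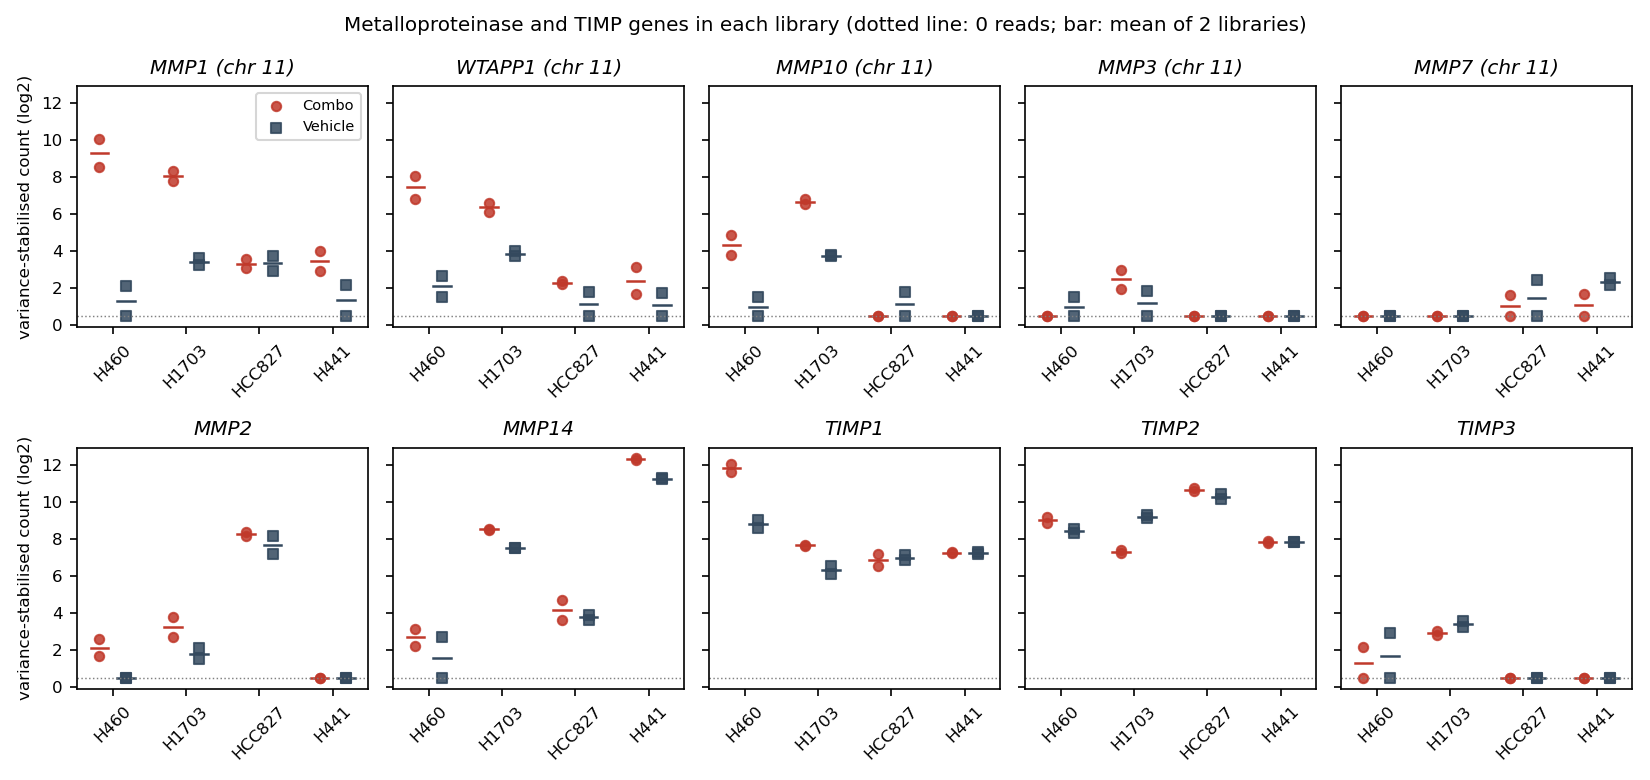
Variance-stabilised counts (log2) of the 10 genes in each of the 16 libraries, by cell line, with Combo libraries as circles and Vehicle libraries as squares, the mean of 2 libraries as a bar and the value of 0 reads as a dotted line. MMP1, WTAPP1 and MMP10 stand apart between treatments in H460 and H1703, while MMP14 is highest in H441 and MMP2 in HCC827.

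MMP14, the membrane-anchored collagenase that also activates pro-MMP2 (ENSG00000157227, chr14:22836557-22849027, plus strand), was higher in all Combo libraries of H1703 and H441, and H441 had by far the highest level. In H1703 it had 349.6 and 370.4 normalised reads with Combo, against 176 and 176 with Vehicle. In H441 it had 5158 and 4820 with Combo, against 2440 and 2369 with Vehicle, a mean of 4989 ± 239 against 2404 ± 50.1 (SD, n = 2 each). The libraries of a group lay close together in both lines and the groups did not overlap. The ratio was 2.05 in H1703 (counting interval 1.82 to 2.32) and 2.07 in H441 (2.00 to 2.15). The H441 change, the only one of these that was tested, was 1.05 ± 0.59 on the log2 scale and did not pass in limma (adjusted p = 0.415). Its call depended on how the error was estimated. A fit of the H441 libraries alone, which called 0 of all genes, gave the same change with an SE of 0.05 and an adjusted p of 0.0809. With limma voom on recovered reads the SE was 0.07 and the adjusted p 7.69e-12. The change passed as well without Vehicle 1 or Vehicle 2 of H460 (adjusted p 0.0472 and 0.0452) and with a replicate block (0.0419), and its adjusted p ran over 7.69e-12 to 0.607 across the alternatives. In H460, MMP14 had 6 and 2 reads with Combo and 4 and 0 with Vehicle, and in HCC827 it had 8 and 25 with Combo and 8 and 12 with Vehicle (log2 change 0.38 ± 0.59, adjusted p = 0.787 by limma).

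MMP2, gelatinase A, which degrades basement membrane collagen IV (ENSG00000087245, chr16:55389700-55506691, plus strand), was abundant in HCC827 only. There it had 275 and 332 normalised reads with Combo, against 143 and 277 with Vehicle. The higher Vehicle library lay above the lower Combo library, and the log2 change of 0.59 ± 0.50 did not pass (adjusted p = 0.560 by limma). It passed with limma voom on recovered reads (adjusted p = 0.0467), and its adjusted p under the other alternatives was at least 0.331. In H1703 there were 10 and 5 reads with Combo against 2 and 1 with Vehicle, a ratio of 5.61 (1.59 to 30.2). In H460 there were 1 and 3 reads with Combo against none with Vehicle. With the Vehicle group set at its floor of 3 reads the ratio was 1.65. That value leaves out counting error and is no lower limit. H441 had no MMP2 read in any library.

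TIMP1, a secreted inhibitor of most matrix metalloproteinases (ENSG00000102265, chrX:47582313-47586789, plus strand), had 4260 and 3055 normalised reads in H460 Combo cells, against 513 and 382 in Vehicle cells. In H1703 it had 198 and 194 with Combo, against 88.6 and 65.9 with Vehicle. Both Combo libraries were above both Vehicle libraries in these lines, by 8.38-fold (7.84 to 8.96) in H460 and 2.60-fold (2.18 to 3.10) in H1703. In H460 the first Combo library had more TIMP1 and less MMP1 than the second. HCC827 had 89.4 and 141 normalised reads with Combo and 135 and 113 with Vehicle, and H441 had 151 and 145 with Combo and 154 and 139 with Vehicle. The groups overlapped in both of these lines, with log2 changes of -0.13 ± 0.20 (adjusted p = 0.777 by limma) and 0.02 ± 0.20 (adjusted p = 1.00).

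TIMP2, which inhibits MMP2 and also bridges it to MMP14 on the cell surface (ENSG00000035862, chr17:78852977-78925387, minus strand), moved in opposite directions in H460 and H1703. In H460 it had 464 and 570.1 normalised reads with Combo, against 313 and 367 with Vehicle, a ratio of 1.5 (1.36 to 1.65). In H1703 it had 166 and 145 with Combo, against 612 and 546 with Vehicle, a ratio of 0.268 (0.237 to 0.302). The groups did not overlap in either line, and the log2 changes were 0.60 ± 0.13 and -1.88 ± 0.13. HCC827 had the highest level, with 1502 and 1676 normalised reads with Combo, against 1114 and 1357 with Vehicle, and the groups were again apart. That log2 change of 0.37 ± 0.13 missed the threshold in limma (adjusted p = 0.0771, unadjusted 0.00955). It passed with quantile normalisation (adjusted p = 0.0313), with a replicate block (0.0213) and with limma voom (0.00944), and its adjusted p was up to 0.511 over the alternatives. In H441 the level was 215 and 235 with Combo and 225 and 220.3 with Vehicle, a change of 0.01 ± 0.13 (adjusted p = 1.00). TIMP2 shares 367 exon bases with an antisense gene and 198 with CEP295NL, a small part of its exon sequence. TIMP3, a matrix-bound inhibitor (ENSG00000100234, chr22:32801701-32863043, plus strand), had 38 reads in all, with 4 and 7 in H1703 Combo against 7 and 13 in Vehicle libraries and 2 and 0 in H460 Combo against 5 and 0 in Vehicle libraries, and was not tested.

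**Figure D2:**
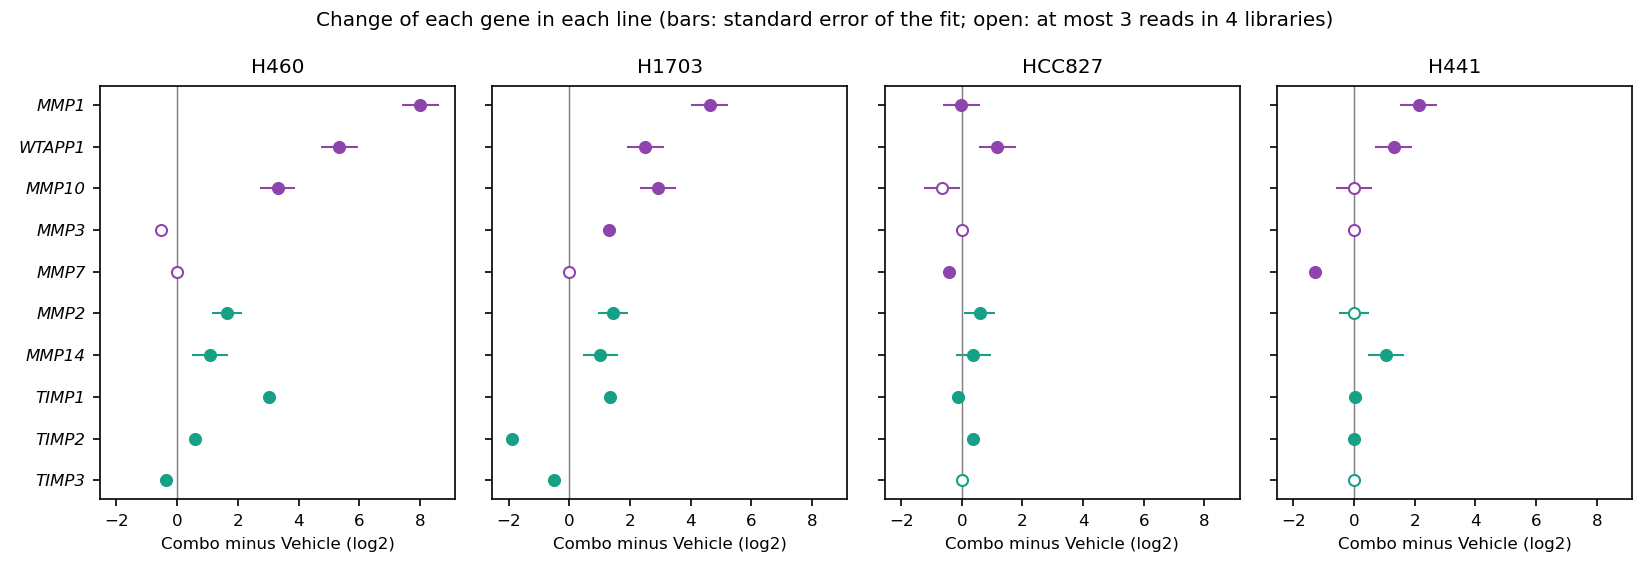
Change of each gene (Combo minus Vehicle, log2 of variance-stabilised counts) in each cell line, with the standard error of the fit where the gene passed the filter, purple for the chromosome 11 cluster and green for genes elsewhere, and open circles for at most 3 reads in the 4 libraries. The largest changes are those of MMP1 (8.02 in H460 and 4.62 in H1703), and TIMP2 points in opposite directions in H460 and H1703.

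The 5 cluster genes on chromosome 11 were then set beside the 5 genes on other chromosomes. In H460 the median log2 change was 3.31 for the cluster and 1.09 for the others, with a median of 0.05 over all genes tested. In H1703 it was 2.50 and 1.02, with 0.08 over all genes. The H460 medians are the values of MMP10 (34 reads with Combo, 1 with Vehicle) and MMP14 (8 and 4), so they rest on few reads. The changes in these lines chose the list, so the medians are a description. All Combo libraries were above all Vehicle libraries for MMP1, WTAPP1 and MMP10 of the cluster and for MMP2, TIMP1 and TIMP2 of the others in H460, where 56.9% of all genes tested had groups that did not overlap. In H1703, where that share was 67.3%, this held for MMP1, WTAPP1, MMP3 and MMP10 and for MMP2, MMP14 and TIMP1, and TIMP2 and TIMP3 were lower in both Combo libraries. Both counts include genes with few reads. Summed over the cluster there were 1689 reads with Combo and 9 with Vehicle in H460, and 962 with Combo and 80 with Vehicle in H1703.

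In HCC827 and H441 the medians were -0.02 and 0.00 for the cluster and 0.37 and 0.01 for the others, with 0.00 over all genes in both lines. Non-overlapping groups were found for WTAPP1 and TIMP2 in HCC827 (50.1% of all genes tested), and for MMP1, MMP7 and MMP14 in H441 (44.9%), where MMP7 was lower with Combo. The cluster had 21 reads with Combo and 19 with Vehicle in HCC827, and 29 with Combo and 8 with Vehicle in H441. Of the 7 genes that passed the filter on low values, 0 passed the test in HCC827, where 9.92% of all genes did, and 0 in H441, where 4.63% did. At an unadjusted p under 0.05 there was 1 in HCC827 (TIMP2) and there were 2 in H441 (MMP1 and WTAPP1), and limma voom called 2 (MMP2 and TIMP2) and 1 (MMP14). These counts say little of the family, since MMP10 had 1 read in HCC827 and none in H441, MMP2 had none in H441, and neither could be called there. The difference between the responses of HCC827 and H441 passed for 0 of the 7, against 2.01% of all genes, with 1 at an unadjusted p under 0.05 (MMP1) and 0 with limma voom. For MMP1 that difference was -2.16 ± 0.86 on the log2 scale (adjusted p = 0.236 by limma), and for TIMP2 it was 0.36 ± 0.18 (adjusted p = 0.383).

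Levels can be compared between genes per kilobase of exon. In H460 Combo cells MMP1 reached 369 normalised reads per kilobase on average, against 0.497 in Vehicle cells, while TIMP1 was at 2373 with Combo, against 290.4 with Vehicle. TIMP1 remained the most abundant of the 10 genes in H460 on this scale. In H1703 Combo cells MMP1 was at 135, TIMP1 at 127, MMP14 at 80.6, MMP10 at 57.1 and TIMP2 at 27.6 normalised reads per kilobase, against 4.22, 50.1, 39.4, 6.24 and 103 in Vehicle cells. The order of the 10 genes was thus different there, with MMP1 and TIMP1 at the top in Combo cells and TIMP2 first in Vehicle cells. MMP1 was first in Combo 1, at 160 against 129 for TIMP1, and TIMP1 in Combo 2, at 126 against 111 for MMP1. In HCC827 TIMP2 was first, with 282 with Combo and 219 with Vehicle, and in H441 MMP14 was first, with 1118 with Combo and 539 with Vehicle.

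The levels of the 6 metalloproteinases and of the 3 TIMPs were also summed per kilobase in each library, a measure chosen after the values were seen and given with no test. The metalloproteinase sum in H460 was 195 and 567 with Combo, against 1.87 and 0.832 with Vehicle, and the TIMP sum was 2847 and 2084, against 389 and 313. Both sums were higher with Combo in H460, and the TIMP sum stayed above the metalloproteinase sum in each of its libraries. In H1703 the metalloproteinase sum was 305 and 247 with Combo, against 49.4 and 51.6 with Vehicle, and the TIMP sum was 159 and 153, against 168 and 142. The metalloproteinase sum exceeded the TIMP sum in both Combo libraries of H1703 and in neither Vehicle library. In HCC827 the metalloproteinase sum was 60.9 and 77.5 with Combo and 37.4 and 62.8 with Vehicle, below the TIMP sum in all 4 libraries. In H441, where MMP14 made up nearly all of it, it was 1158 and 1087 with Combo, against 549 and 532 with Vehicle, above the TIMP sum in all 4.

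**Figure D3:**
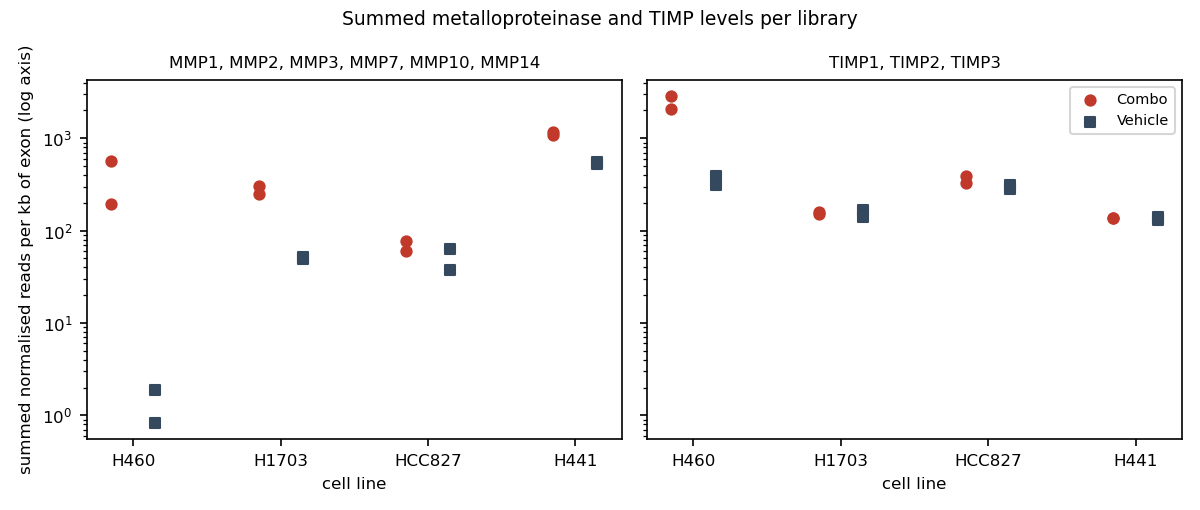
Summed normalised reads per kilobase of exon in each library, on a log axis, for the 6 metalloproteinases on the left and the 3 TIMPs on the right, by cell line, with Combo as circles and Vehicle as squares. The metalloproteinase sums of H460 lie at 195 and 567 with Combo, far above 1.87 and 0.832 with Vehicle, while the TIMP sums of H1703, HCC827 and H441 differ little between treatments.

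Vehicle levels of MMP14, TIMP1 and TIMP2 were compared between lines, with the limit that the H460 and H1703 Vehicle libraries also enter the responses that chose the list. Over all genes, the share that passed in limma was 46.4% for H460 against H1703, 50.3% for H460 against HCC827, 54.2% for H460 against H441, 50.7% for H1703 against HCC827, 52.1% for H1703 against H441 and 44.7% for HCC827 against H441. MMP14 was highest in H441, at 2440 and 2369 normalised reads, followed by 176 and 176 in H1703, 9.69 and 12.2 in HCC827 and 3.91 and 0 in H460. Each neighbour in that order differed from the next in limma. The log2 differences were -3.75 for H1703 minus H441 (adjusted p = 0.000216), 3.73 for H1703 minus HCC827 (0.000249) and -2.18 for H460 minus HCC827 (0.00928). The H460 minus HCC827 difference rests on few H460 reads, and without single libraries it ran over -3.28 to -1.08. TIMP2 was highest in HCC827, then H1703, H460 and H441, and each step passed, at -1.08 for H1703 minus HCC827, -0.76 for H460 minus H1703 and 0.60 for H460 minus H441 (adjusted p at most 0.000454 by limma).

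TIMP1 was highest in H460 Vehicle cells, above H441 by 1.58. HCC827 and H441 did not differ beyond their spread, at -0.24 for HCC827 minus H441 (adjusted p = 0.372 by limma). H1703 was lowest, at -0.67 relative to HCC827 (adjusted p = 0.00815), a difference lost when libraries were centred on their medians (-0.47), with limma voom, and without H1703 Vehicle 2 or HCC827 Vehicle 1. MMP2 and MMP10 passed the filter through the groups where they are high, so their Vehicle levels are a description. MMP2 had 143 and 277 normalised reads in HCC827, 3 reads over both libraries in H1703 and none in H460 and H441. MMP10 had 27 reads over both libraries in H1703, 1 in HCC827, 1 in H460 and none in H441. MMP1 had 7 and 14 reads in H1703 Vehicle cells, 9 and 5 in HCC827, 2 and 0 in H441 and 2 and 0 in H460.

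Genes around the cluster were examined next, as 23 genes of the table within 1000000 bases of a cluster gene, of which 17 were tested. In H460 5 rose and 0 fell, where 26.7% of all genes were called, 14.1% higher and 12.6% lower. In H1703 2 rose and 5 fell, where 35.5% of all genes were called, 17.9% higher and 17.6% lower. HCC827 had 1 rise and 3 falls, with 9.92% of all genes called, 4.42% higher and 5.5% lower. In H441 0 of the 17 passed in limma, with 4.63% of all genes called, 2.77% higher and 1.86% lower, and limma voom called 1. When each library was centred on its median, the H460 counts were 3 and 1 and the H1703 counts 2 and 6. BIRC3, an inhibitor of apoptosis in NF-kB signalling, rose by 1.57 ± 0.24 in H460 (157 and 267 normalised reads with Combo, against 83.1 and 54.3 with Vehicle) and fell by 1.30 in H1703 (1926 and 2356 against 5064 and 5422). CEP126, a centrosomal protein gene, rose in H1703 by 1.44 ± 0.17 (169.9 and 173 against 56.5 and 66.6). TRPC6, a calcium channel gene, fell in HCC827 by 1.73 (3.53 and 8.30 against 30.3 and 19.2, adjusted p = 0.0397 by limma), a call lost in 9 of 24 alternatives. Only genes among the 10 were counted as cluster genes. MMP13, collagenase 3, is another metalloproteinase gene of the same window and was counted with the neighbours. It had 23.5 and 20.3 normalised reads in HCC827 Combo cells, against 81.2 and 71.9 in Vehicle cells, and its log2 change of -1.69 ± 0.68 did not pass (adjusted p = 0.139).

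**Figure D4:**
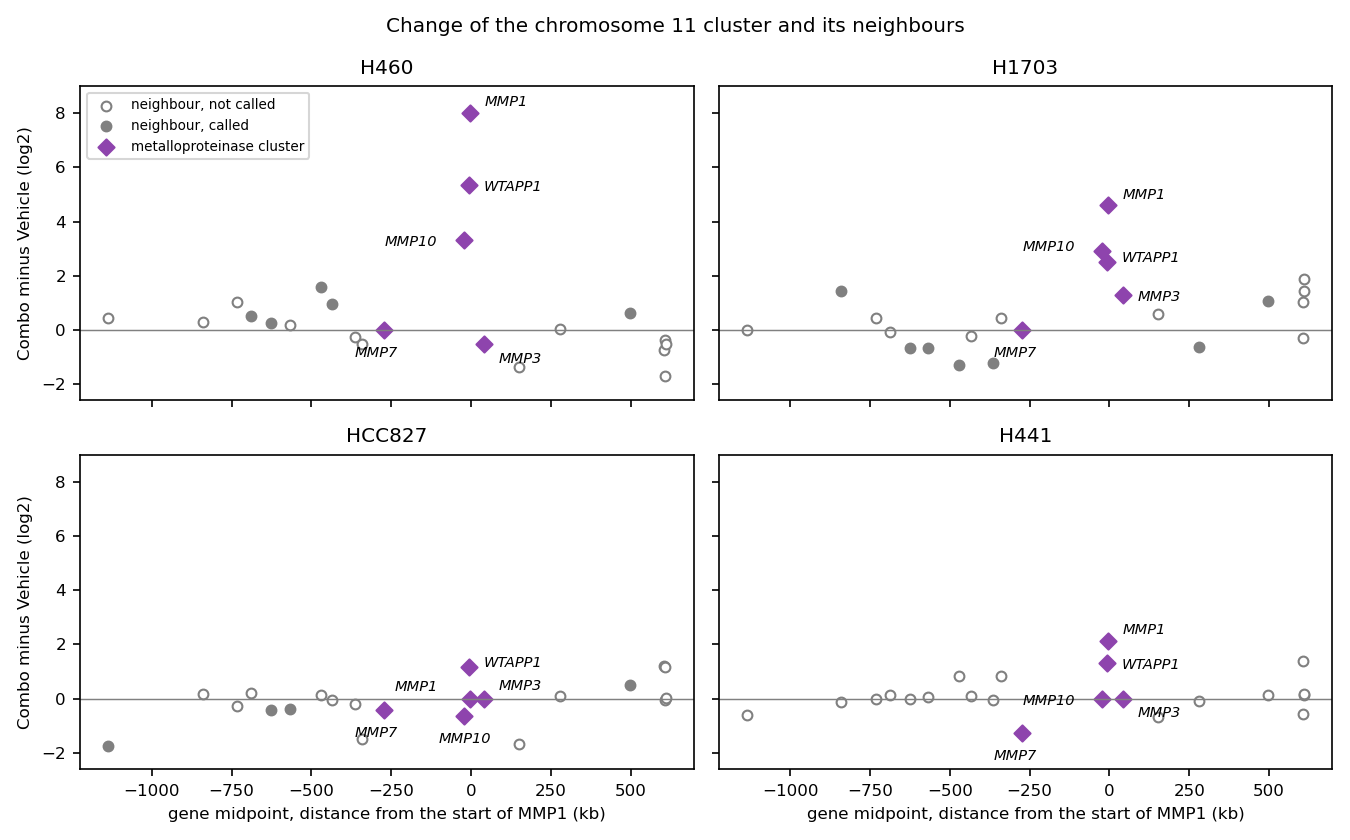
Change (Combo minus Vehicle, log2) of the cluster genes (diamonds) and of the tested neighbours (circles, filled where called) in each cell line, against the distance of the gene's midpoint from the start of MMP1 in kilobases. MMP1, WTAPP1 and MMP10 lie above all neighbours in H460 (8.02, 5.34 and 3.31) and in H1703 (4.62, 2.91 for MMP10 and 2.50 for WTAPP1).

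Of 17 other matrix metalloproteinase genes, 10 were tested, and 3 were called for H460 (26.7% of all genes), 2 for H1703 (35.5%), 2 for HCC827 (9.92%) and 1 for H441 (4.63%). MMP25 and MMP19 rose and MMP15 fell in H460, MMP25 rose and MMP15 fell in H1703, and MMP9 and MMP15 rose in HCC827. MMP16 was called lower in H441 on few reads, none with Combo against 1 and 1 with Vehicle. That call was lost with limma voom, in a fit of the H441 libraries alone and when any single library of H441 was left out. The fit of the H441 libraries alone called 0 of all genes. Centring libraries on their medians shifted the median change of all genes by -0.19 in H460 and -0.24 in H1703, and MMP25 then passed in neither line. MMP9, gelatinase B, had 67.1 and 67.3 normalised reads in HCC827 Combo cells, against 17.0 and 28.4 in Vehicle cells (1.5 ± 0.37, adjusted p = 0.0128 by limma). In H441 it had 164 and 119, against 74.0 and 47.7 (1.2 ± 0.37, adjusted p = 0.0762). The HCC827 call was lost without either Combo library or Vehicle 1 of that line. MMP15, a membrane-type enzyme, changed by -0.55 in H460, -1.32 in H1703 and 0.67 in HCC827, and of these the H1703 fall was the one kept under all alternatives. MMP19 had 8.16 and 5.70 normalised reads in H460 Combo cells, against none in Vehicle cells.

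Among 6 other inhibitors, 3 rose and 0 fell in H460, 1 rose and 1 fell in H1703, 1 rose and 0 fell in HCC827 and 0 passed in H441. The share of all genes called was 26.7% for H460, 35.5% for H1703, 9.92% for HCC827 and 4.63% for H441, and the 2 of 6 for H1703 lie near it. With limma voom 5 rose in H460 and 2 fell in H1703, and centred on library medians 2 rose in H460 and 2 fell in H1703. TFPI2, a matrix-associated inhibitor of plasmin and trypsin, rose by 4.39 ± 0.19 in H460, with 15030 and 19713 normalised reads with Combo, against 696 and 959.6 with Vehicle. It fell by 1.36 in H1703 (118 and 78.8 against 251 and 251). SERPINE2, an inhibitor of thrombin and urokinase, rose by 3.01 ± 0.20 in H460 and by 1.18 ± 0.20 in HCC827. TIMP4, the remaining TIMP, was named after its values were seen. It rose in H460, with 17.3 and 27.4 normalised reads with Combo, against 5.87 and 6.29 with Vehicle, and in H1703, with 5.45 and 3.94, against 0 and 0.701. The H460 call was lost under both other scalings.

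Proenzymes of this family are activated by plasmin and by furin-like proteases. Of 11 genes listed around these systems 9 were tested. The list also holds BSG and CTSB, which are neither plasmin-system genes nor furin-like proteases. There were 4 rises in H460 (BSG, FURIN, PLAT and PLAUR) and 2 rises and 2 falls in H1703 (PCSK6 and PLAU, and BSG and CTSB). HCC827 had 3 rises (CTSB, PLAU and PLAUR) and H441 had 4 (CTSB, PLAT, PLAU and PLAUR). The share of all genes that rose was 14.1% for H460, 17.9% for H1703, 4.42% for HCC827 and 2.77% for H441. PLAU, urokinase, had 5409 and 5939 normalised reads in H441 Combo cells, against 1842 and 1748 in Vehicle cells (1.66 ± 0.18, adjusted p = 2.35e-05 by limma), and 3629 and 3864 in HCC827 Combo cells, against 2160 and 2192 (0.78 ± 0.18, adjusted p = 0.00763). Its rise in H1703 rested on 3.27 and 3.94 normalised reads against 0.974 and 2.80 and was lost under both other scalings, and centring on medians left 1 rise and 3 falls in H1703 and 2 rises in HCC827. PLAUR, the urokinase receptor, rose by 1.72 in H460, 0.98 in HCC827 and 1.01 in H441. In a fit of the H441 libraries alone, which called 0 of all genes, none of the 4 H441 rises passed (PLAUR adjusted p = 0.122 by limma). PLAT, tissue plasminogen activator, rose by 1.78 in H460 and by 1.08 in H441, and the H441 call, with an adjusted p of 0.0422 by limma, was lost in 19 of 24 alternatives (0.00212 to 0.274).

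Of 14 ADAM and ADAMTS proteases 13 were tested, with 6 rises and 1 fall in H460, 1 and 4 in H1703, 2 and 1 in HCC827 and 3 and 0 in H441. Of all genes 26.7% were called for H460, 35.5% for H1703, 9.92% for HCC827 and 4.63% for H441, and the 5 of 13 in H1703 lie close to that share. Centred on library medians these were 4 and 1 in H460, 0 and 4 in H1703 and 0 and 1 in HCC827. ADAMTS6 rose by 3.46 ± 0.25 in H460 (922 and 1094 normalised reads with Combo, against 80.2 and 98.3 with Vehicle). ADAM19 rose by 2.12 in H460 and 1.06 in H441, and ADAM8 rose by 1.63 in H441 (60.4 and 46.3 against 16.6 and 14.1). ADAM17, the shedding protease of TNF and EGFR ligands, was named after its values were seen. Its rise was 0.25 for H460, 0.26 for H1703, 0.32 for HCC827 and 0.45 for H441, and it passed only in H441 when libraries were centred on their medians.

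Of 16 transcription factors known to act at metalloproteinase genes, all tested, 9 rose and 1 fell in H460, 9 rose and 1 fell in H1703, 5 rose in HCC827 and 6 rose in H441, against rises in 14.1% of all genes for H460, 17.9% for H1703, 4.42% for HCC827 and 2.77% for H441. With libraries centred on their medians the counts were 7 and 2 in H460 and 7 and 4 in H1703. CEBPB, ETS1 and ETV5 rose in all 4 lines, with ETS1 at 0.87 for H460, 0.77 for H1703, 0.61 for HCC827 and 0.50 for H441, while with that centring CEBPB in H460 and ETV5 in H460 and H1703 did not pass. These 3 genes, FOSL1 and JUN were named after their values were seen. With neither trend nor robust settings 2 of the 16 factors rose in HCC827. In a fit of the H441 libraries alone, which called 0 of all genes, 0 rose. Not all calls of these 3 genes in HCC827 and H441 were thus kept. JUNB rose by 1.87 ± 0.14 in H460 and by 0.70 ± 0.14 in HCC827, and JUN by 1.70 in H460 and 1.39 in H1703. FOSB rose in H460 on few reads (14.3 and 9.12 normalised reads with Combo, against 0 and 0.787 with Vehicle). FOSL1, the AP-1 subunit FRA-1, rose by 1.24 in H460, 0.72 in H1703 and 1.18 in H441, and had 6369 and 6596 normalised reads in H441 Combo cells, against 3029 and 2687 in Vehicle cells. RUNX2 rose by 2.61 ± 0.28 in H1703 (119 and 95.4 against 12.7 and 18.2). NFKB1, a subunit of NF-kB, was the one that fell in H460 (-0.40) and in H1703 (-0.80).

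**Figure D5:**
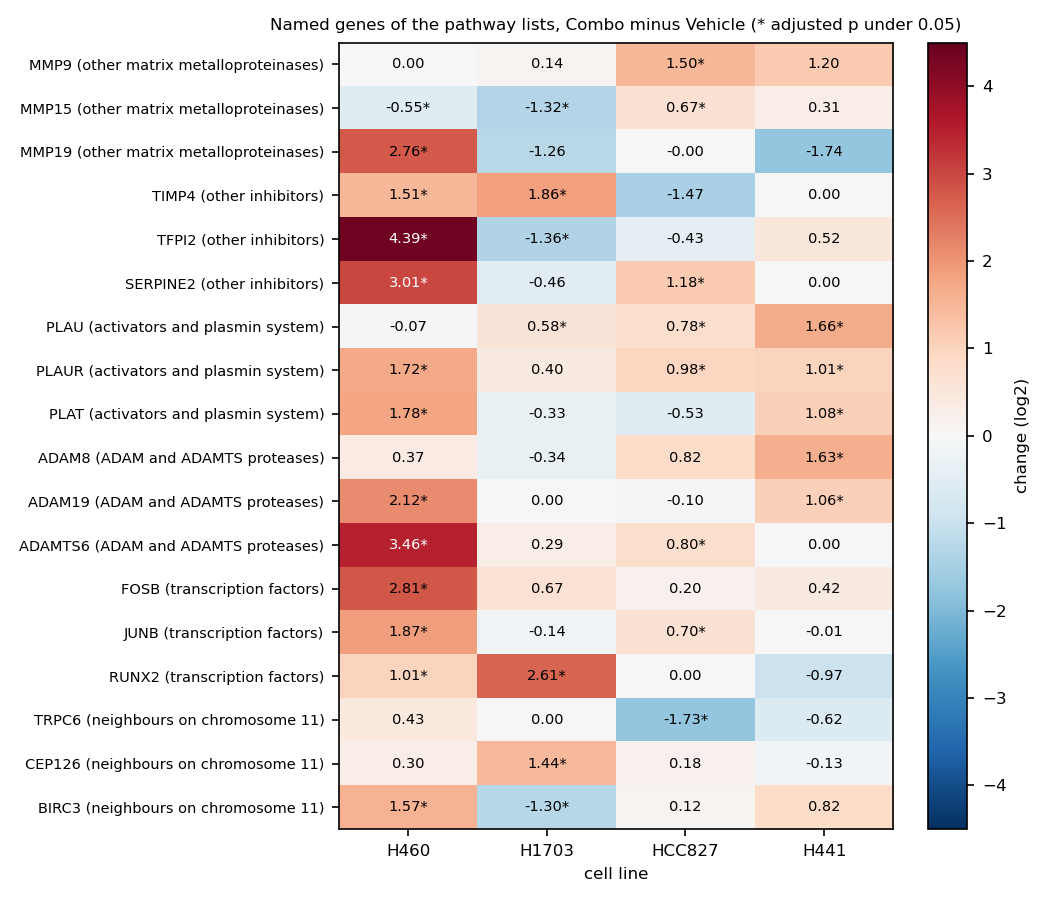
Change (Combo minus Vehicle, log2) of the genes named from each list in the 4 lines, in red for higher and blue for lower with Combo, with an asterisk for an adjusted p under 0.05 in limma. TFPI2 and MMP15 carry calls of opposite sign in H460 or HCC827 and in H1703, and PLAUR is called higher in H460, HCC827 and H441.

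The pattern of MMP1 over the 8 group means was compared with 19600 other genes by the root mean square difference, after subtraction of each gene's own mean. The nearest was WTAPP1, at 1.03, and MMP10 was at 1.61, with 4 genes closer. Outside the 10 genes the nearest were UNC13A (1.19), ZNF853 (1.60), MTND2P12 (1.60), SOCS2-AS1 (1.65) and PTPRN2 (1.66), on chromosomes 19, 7, 17, 12 and 7. UNC13A, a gene of synaptic vesicle priming, had 700 and 1280 reads in H460 Combo libraries, against 12 and 52 in Vehicle libraries, and 219 and 326 in H1703 Combo libraries, against 101 and 105. It was higher with Combo in the remaining lines too, with 21 and 26 reads against 6 and 8 in HCC827, where MMP1 groups overlapped, and 23 and 24 against 4 and 9 in H441. These distances describe the same 16 libraries that chose MMP1 and carry no test.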

How the data were processed

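Total RNA from the 16 libraries was made into libraries with a SMARTer stranded kit, per the labels' protocols. The submitters' processing notes name Trimmomatic, STAR and featureCounts and the build hg38 (GRCh38), while versions, annotation and strand setting were not found in the sources used here. Values on a log2 scale, variance-stabilised counts made by the authors, were deposited for 28951 genes. The lowest value, 0.481, is that of 0 reads, and inverting the scale returned integer reads to within 0.02 for 100% of values. Variance stabilisation compresses low counts, so genes of few reads are given as reads, with exact 95% counting intervals and a floor of 3 reads over a group at 0. Depth was 8493271 to 13604150 reads per library.

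One limma fit (R 4.3.3 with limma 3.58.1, its moderation using a trend and robust estimation) of 8 group means over the 16 libraries was run on the 23968 genes with a mean of 1 or more over the lowest value, among them 7 of the 10 genes. Adjusted p is by Benjamini and Hochberg over these genes, with a threshold of 0.05. The deposited values are log2 and not counts, so limma was used rather than a count model, and limma voom on the recovered reads was an alternative. Replicate numbers are in the labels, but libraries of one line with the same number deviated together at correlations of only 0.014 to 0.032, so they were not treated as pairs.

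The 10 genes, the lists and the tests were chosen with earlier results of these data known. From each list and from the neighbours, the 3 genes with the largest change in a line where they passed were named, and the 5 genes nearest to MMP1. MMP13, MMP16, MMP25, TIMP4, ADAM17, CEBPB, ETS1, ETV5, FOSL1, JUN and NFKB1, and genes listed by name after a count, were added after their values were seen. The lists were 17 other metalloproteinases, 6 inhibitors, 11 activators and related genes, 14 ADAM and ADAMTS genes and 16 transcription factors. COL1A2, DCN, PTPRC and CDH5 were not analysed here, and 1 further inhibitor of that list is not reported here. The fit was checked on simulated data. Positions are from GENCODE 29 and start regions from RefSeq (GRCh38.p14). Python 3.11.15, numpy 2.4.6, pandas 2.3.3, scipy 1.17.1 and matplotlib 3.10.9 were used.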

Additional observations from a re-analysis of the deposited data

Results flagged for a closer look

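TIMP2 is flagged because its libraries moved in opposite directions between lines under the same comparison. Its log2 change was 0.60 in H460 and 0.37 in HCC827, where both Combo libraries lay above both Vehicle libraries, and -1.88 in H1703, where both lay below. The HCC827 change did not pass (adjusted p = 0.0771 by limma). Of all genes tested, 56.9% in H460, 67.3% in H1703 and 50.1% in HCC827 had groups that did not overlap. Opposite directions in H460 and H1703 were also found for TFPI2 and BIRC3. The difference between the lines was not tested, since the H460 and H1703 changes chose the genes. With libraries centred on their medians the H460 change was 0.40 and the H1703 change -2.12.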

How the results depend on the processing

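Beside the values above, 24 alternatives were run, and among values of single genes with a test 1546 kept their direction and their side of the threshold, 98 lost the call, 13 gained it and 10 turned direction. Of the 24 alternatives, 16 left out 1 library each, and leaving out a library of another line cannot move a line's change, only its error. Many of these genes were named because they were called, and Vehicle differences of MMP2 and MMP10 are included. The tally is thus no measure of how stable the results are. Counts of genes called changed as follows. With neither trend nor robust settings HCC827 gave 1183 genes against 2378, H441 364 against 1110 and the difference between them 102 against 481. A fit of only the libraries of a line gave 3626 in H460 against 6398, 1299 in HCC827 and 0 in H441. Leaving out each library in turn gave 4886 to 6392 genes in H460, 6281 to 8785 in H1703 (8500 in the full fit), 1013 to 2740 in HCC827, 499 to 1432 in H441, 195 to 737 for the difference and 23 to 25 of the 30 Vehicle differences of MMP10, MMP2, MMP14, TIMP1 and TIMP2. A group left with 1 library was assumed to vary like the others. Changes near 0 turned direction: MMP1 in HCC827 was 0.044 with limma voom and ran over -0.44 to 0.40 without single libraries, MMP14 in HCC827 over -0.17 to 0.93, TIMP1 over -0.45 to 0.19 in HCC827 and -0.0503 to 0.0914 in H441, and TIMP2 in H441 over -0.0534 to 0.0770, and -0.0029 with quantile normalisation. Of the untested changes MMP14 in H460, on 12 reads in all, was -0.01 without Vehicle 2. The causes were not tested. The replicate block gave 6635 genes in H460, 8696 in H1703 (8500 in the full fit), 2663 in HCC827, 1326 in H441 and 637 for the difference. It is not known here whether libraries of the same number were processed together, so the block is an alternative only. Median centring lowered the share of calls that were higher with Combo to 32.6% in H460 and 31.1% in H1703, against 52.7 and 50.4%. Depth limits MMP1 and WTAPP1 in HCC827 and H441 and MMP3, MMP7 and TIMP3 in all lines, where wide counting intervals leave changes of a few fold undetectable.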
